A study of Mus musculus with 85 samples.

Results

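Hemogenic endothelial cells were compared with other endothelial cells of the mouse embryo at embryonic day (E) 10.5, one cell at a time. The members were all cells that the labels class as hemogenic endothelial cells (HEC, 7 cells) and all that they class as endothelial cells (EC, 7 cells), which is 14 of the 85 single-cell arrays of the study. Both populations came from the caudal part of embryos of 1 genotype, eR1-GFP, in which an enhancer of Runx1 drives green fluorescent protein (GFP). HEC were sorted as GFP-positive and EC as GFP-negative, and both were CD31-positive and negative for Ter119, CD45 and CD41, so that red cells and cells already carrying blood surface markers were gated out of both. The tissue had been dissociated with collagenase, and each sorted cell was lysed and its polyadenylated RNA was amplified for 1 Affymetrix array. Other cells of the study, hematopoietic cluster cells at E10.5 (28) and E12.5 (16) and fetal liver hematopoietic stem cells (HSC, 27), came from wild-type embryos and enter only the last comparison. GFP stands for enhancer activity and not for blood-forming ability, which was not measured in these cells.

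Hemogenic endothelium is the small set of vessel-lining cells that turns into blood cells in the wall of the embryonic aorta. Endothelial cells divide early into arterial and venous identities, with Notch signalling and SoxF transcription factors promoting the arterial one and Nr2f2 the venous one. Blood stem cells bud mainly from arterial sites, where Runx1, acting downstream of factors such as Gata2, opens the blood programme while the endothelial programme is shut off.

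The values are log2 expression values, on which 1 unit is a doubling. Values above 5 count as above background. Of 18193 genes with a probe set, 10694 were above background in at least 3 cells of the study and are called measured. The labels call the cells of a population biological replicates but name no embryo, litter or pool, so cells of 1 population may share a source. Each population therefore counts as 1 sample, no test was made, and an SD is the spread over cells. With 7 cells, a gene above background in none of them can be present in up to 41.0% of such cells, and one above background in all of them in as few as 59.0% (exact 95% Clopper-Pearson limits, counting error only). In single cells a value at the floor can mean no RNA or RNA that was not captured.

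More RNA species were detected in HEC than in EC, and this runs through all comparisons below. The number of probe sets above background was 6630, 7793 and 9020 in HEC (lowest, median and highest) and 3867, 5689 and 8269 in EC. The median signal of those probe sets was 9.11, 10.19 and 11.62 in HEC and 8.44, 9.04 and 10.43 in EC. The highest EC by number of probe sets was cell 3, which goes against its label (below), and EC cell 1 came next at 6771. Capture of RNA and the RNA content of the cells cannot be told apart here. The share of these array-wide differences in any single gene's difference was not tested. Bringing the arrays to an equal median signal lowers every difference between the populations by the same 0.98 log2 units, and bringing them to an equal median of 11 housekeeping genes lowers it by 1.16. A gene higher in HEC by less than that has no settled direction. Differences are best read against the median over all measured genes, which was 0.82 as deposited and -0.16 at equal median signal. Floor values are shifted too, so counts of lower genes under these scalings include genes at the floor in both populations.

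The labels were checked against marker genes. All 7 HEC had the endothelial genes Cdh5 (VE-cadherin), Pecam1 (CD31, a sorting marker), Kdr, Tie1, Tek and Cldn5 above background, and of 30 measured endothelial genes each HEC held between 26 and 30. The EC other than cell 3 held 21 to 28 of them, and EC cell 3 held 2. Cdh5 was at 2.32 in EC cell 3, against a range of 10.13 to 14.58 in the other EC. Kdr, Tek and Cd34 were also at or near the floor there, at 2.34, 2.32 and 2.34. The same cell had Pecam1 at 7.79 and Egfl7, a protein secreted by endothelium, at 8.52. It also held genes of primordial germ cells, with Dnd1 (an RNA-binding protein of germ cells) at 12.95, Sall4 at 14.07, Ifitm1 at 14.85 and Kit at 13.40. Dppa3 (Stella) and Pou5f1 (Oct4) were above background in that cell and in none of the other 13. Of 7 measured germ-cell genes it held 6, against 0 to 3 in the other EC and 1 to 4 in HEC. EC cell 3 thus goes against its label, and results are given with and without it. No cell of either population had a signal for Ptprc (CD45), Plek or the macrophage genes C1qa, C1qb and C1qc.

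Genes higher in HEC outnumbered those lower in HEC. As deposited, 4912 of the 10694 measured genes (45.9%) were higher by at least 1 log2 unit and 787 (7.36%) were lower. Without EC cell 3 these counts were 5297 (49.5%) and 672 (6.28%). At equal median signal they were 2840 (26.6%) and 3314 (31%). That scaling also shifts floor values, so a gene at the floor in both populations can count as lower. Of the measured genes, 1469 were above background in 0 of 14 cells. Quantile normalization gave 2613 higher and 2288 lower, so which direction held more genes depended on the scaling. Counting cells instead of levels, 141 genes (1.32%) were above background in at least 5 more HEC than EC, and 1 gene (0.00935%) in at least 5 more EC. When each array was given its own threshold so that all had the same 3867 probe sets above it, a setting chosen after the data were seen, these counts became 37 (0.346%) and 11 (0.103%). The first count also fell when any 1 cell was left out, to between 68 and 131. With a cell fewer the scaled rule is stricter for some genes, so the fall is partly set by the rule. Leaving out 1 cell, and scaling the rule to the share of cells, gave 80 genes without HEC cell 1, 81 without HEC 2, 82 without HEC 3, 80 without HEC 5, 87 without HEC 6, 85 without HEC 7, 74 without EC 2, 86 without EC 4, 68 without EC 5 and 79 without EC 6.

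The 4 marker genes of this comparison were an arterial connexin, a stem-cell transcription factor and a SoxF factor on the HEC side, and the apelin receptor on the EC side. Among the largest positive differences Gja4 ranked 1, Mecom 3 and Sox7 6, and Aplnr ranked 1 among the negative ones. Gja4, a gap-junction connexin of arteries, was at 2.31, 12.71 and 14.61 in HEC (lowest, median and highest) and at 2.32, 2.37 and 6.39 in EC. It was above background in 6 of 7 HEC and in 1 of 7 EC (cell 2), with a mean of 11.62 ± 4.25 (SD, n = 7 cells) against 2.94 ± 1.52, a difference of 8.69 and of 8.59 without EC cell 3. Only HEC cell 3 lay at the floor among HEC. Mecom, a zinc-finger transcription factor that HSC need, was at 2.31, 13.05 and 14.31 in HEC and 2.34, 2.41 and 10.62 in EC. It was present in the same 6 HEC and in EC cell 4, a difference of 8.13 (7.92 without EC cell 3). This rests on 1 of its 3 probe sets, since the others stayed at background in every cell. Sox7, a SoxF factor of early endothelium, was at 10.34, 12.32 and 14.17 in HEC, all above background, and at 2.32, 2.40 and 12.01 in EC, where cells 1 and 7 had it. Its difference was 7.71 (7.31 without EC cell 3), and 1 of its 2 probe sets carried it. Aplnr, the apelin receptor that marks venous and sprouting endothelium, ran the other way, at 2.32, 2.34 and 14.72 in HEC and 2.32, 14.21 and 15.17 in EC. All EC except cell 3 had it, and among HEC it was in cells 3 and 6. Its difference was -6.80, and -8.48 without EC cell 3. The plot of levels by cell shows that none of these 4 genes separates all cells, and that Gja4 in EC cell 2, at 6.39, lay between the floor and the level of the HEC with the gene. With equal numbers of probe sets above the threshold, the cells above it were 6 against 0 for Gja4, 6 against 1 for Mecom, 7 against 1 for Sox7 and 2 against 6 for Aplnr.

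**Figure D1:**
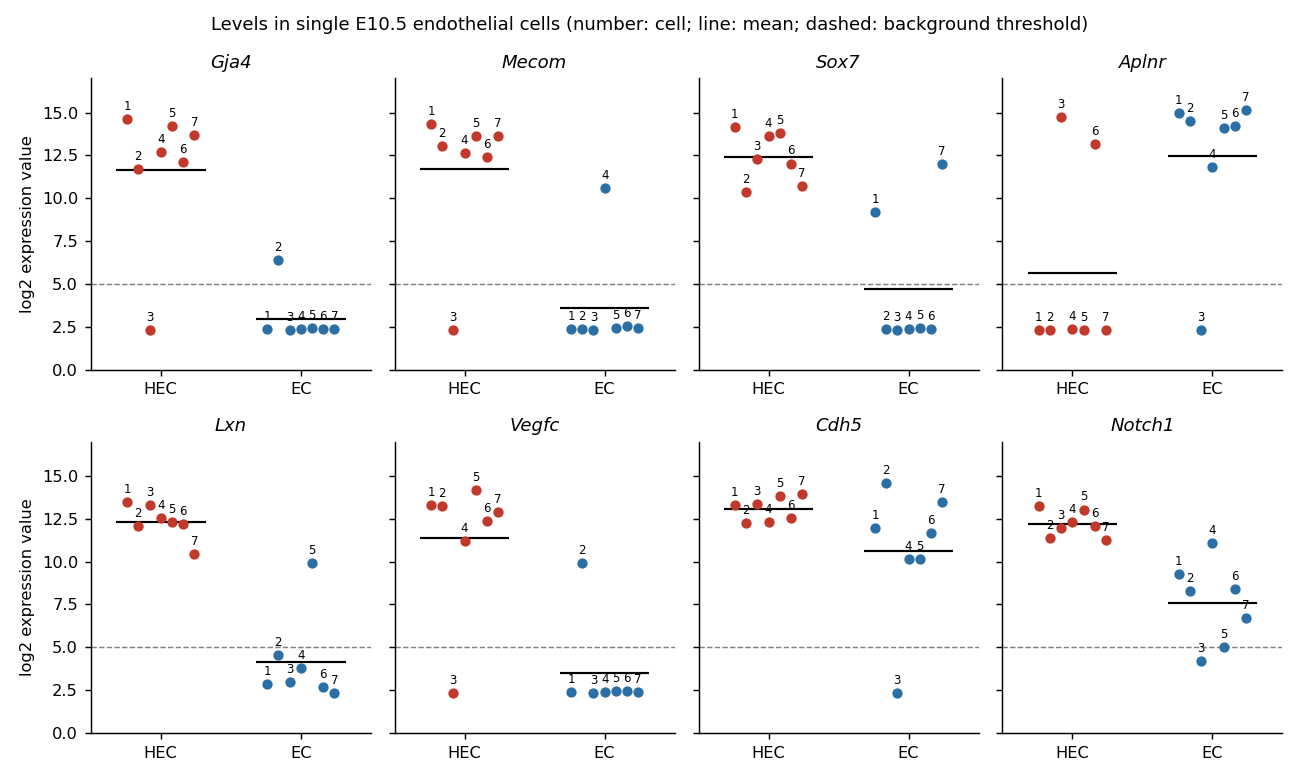
Levels of 8 genes in each of the 14 cells on the log2 scale, with HEC in red and EC in blue. Numbers give the cell, the black line the mean over 7 cells and the dashed line the background threshold of 5. Gja4, Mecom and Vegfc are at the floor in HEC cell 3, Aplnr is high in HEC cells 3 and 6, and Cdh5 is at the floor in EC cell 3.

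The 15 genes with the largest positive difference (background exceeded in at least 4 HEC) ran from Gja4 at 8.69 to Vrk3 at 6.84. Lxn, which encodes the carboxypeptidase inhibitor latexin, was at 10.44, 12.34 and 13.47 in HEC and 2.34, 2.96 and 9.90 in EC, with only EC cell 5 above background among EC and no overlap between the populations, a difference of 8.18. Vegfc, the growth factor of lymphatic vessels, was at 2.34, 12.91 and 14.18 in HEC and 2.35, 2.41 and 9.89 in EC, a difference of 7.90, with HEC cell 3 again at the floor. Epas1, a hypoxia-inducible transcription factor of endothelium, was at 11.68, 13.43 and 14.55 in HEC and 2.32, 2.43 and 13.16 in EC, a difference of 7.47. It was present in all HEC and in EC cells 1, 4 and 6, but its other probe set gave only 0.69. Mob4, a subunit of a phosphatase complex, differed by 7.75 and Rcn1, a calcium-binding protein of the endoplasmic reticulum, by 6.94, both with all 7 HEC and 2 EC above background. Other probe sets of Mob4 gave 5.61 and 1.63, the latter in 5 HEC and 4 EC. Immp1l, part of a mitochondrial peptidase, differed by 7.17, Pak1ip1, a ribosome-assembly factor, by 6.89, and Trak2, an adaptor that ties mitochondria to motors, by 6.86, each in 7 HEC and 2 EC. The other probe set of Pak1ip1 gave 2.82 (3 HEC and 1 EC), and that of Trak2 was in 0 HEC and 0 EC. Sat1, a polyamine-degrading enzyme, differed by 7.09 and Trim47, a ubiquitin ligase, by 6.85. Trim47 was in 6 HEC and no EC, again without HEC cell 3. The remaining members were Msantd4 at 6.86 and Vrk3, a kinase-family protein, at 6.84. With equal numbers of probe sets above the threshold, 12 of the 15 were above it in at least 5 HEC and at most 2 EC, and Trak2, Trim47 and Vrk3 were above it in 3, 4 and 3 HEC and in 0 EC.

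The 15 most negative differences were smaller, from -6.80 to -3.34. After Aplnr came Mtm1, a phosphoinositide phosphatase, at 2.33, 6.11 and 13.62 in HEC and 9.36, 12.11 and 15.44 in EC, present in all 7 EC and 4 HEC, a difference of -4.80. Other probe sets of Mtm1 gave -0.39 (0 HEC and 0 EC) and -1.76 (0 HEC and 2 EC). Abcc9, the regulatory subunit of ATP-sensitive potassium channels, was at 2.32, 2.34 and 12.83 in HEC and 2.32, 10.45 and 13.01 in EC, a difference of -4.71. The only HEC with it was cell 3. Dll1, a Notch ligand, was in 0 HEC and 4 EC, at 2.31, 2.34 and 3.79 in HEC and 2.32, 7.39 and 12.61 in EC, a difference of -4.49. Mmrn1, a matrix protein of lymphatic and platelet cells, was in 2 HEC (cells 3 and 5) and in all EC but cell 3, a difference of -4.13 that grew to -5.27 without EC cell 3. Its other probe set was above background in 0 HEC and 0 EC. The other genes had no common role among those known. They include Pank1 (-4.29), which starts coenzyme A synthesis, Exosc7 (-3.80), an RNA exosome subunit, Slu7 (-3.46), a splicing factor, and Maco1 (-3.59). Melk (-3.94), a kinase of dividing cells, and Brca2 (-3.44), a DNA repair protein, also belonged here, with Pus7l at -4.39, Zmym1 at -3.42, Ttf2 at -3.37 and Zfp329 at -3.34. Leaving out EC cell 3 made the difference smaller for Brca2 (-2.77) and Pank1 (-3.48), which that cell held at 11.43 and 12.89. The only gene above background in at least 5 more EC was Pola1, the catalytic subunit of DNA polymerase alpha, in 2 HEC and 7 EC, but with equal numbers of probe sets above the threshold it was in 1 of each.

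Arterial genes ran towards HEC throughout. Each of the 24 measured members was higher in HEC by at least 1 log2 unit, where 45.9% of all measured genes were, and their median difference was 4.36 against 0.82 over all measured genes. Without EC cell 3 all 24 were higher, with a median of 4.06, and at equal median signal 22 of 24 were, with a median of 3.38, against 26.6% of all genes. Leaving out any 1 cell gave medians between 3.85 and 4.61. Of the 24, 10 were above background in no EC, and HEC alone can carry a gene past the filter for measured genes. Without that filter the median was 4.06. Beside Gja4, arterial ligands and receptors were among the 24. Efnb2, the ephrin ligand that defines arteries, was at 10.97, 12.23 and 12.85 in HEC and 2.33, 8.63 and 11.89 in EC, a difference of 5.45, with 7 HEC and 4 EC above background. Dll4, the arterial Notch ligand, was at 2.31, 7.68 and 11.07 in HEC and 2.33, 2.39 and 3.47 in EC, in 6 HEC and 0 EC, a difference of 4.79. Its signal in HEC was low, and none of the 14 cells passed the threshold that equalises probe set numbers. Unc5b, a netrin receptor of arterial tip cells, was in 5 HEC and 0 EC, a difference of 5.21, and Cd44, a hyaluronan receptor, was in 5 HEC and 0 EC, at 2.33, 9.42 and 12.66 in HEC, a difference of 6.08. The connexin Gja5 was detected in HEC cells 2, 5 and 7 alone, the kinase Bmx in cells 2 and 7 and the chemokine Cxcl12 in cells 1, 5 and 7. For these 3 the mean differences (2.34, 2.61 and 2.98) come from a minority of cells, and the medians over cells did not differ beyond the floor. The receptors Notch4 (difference 4.01) and Nrp1 were broad, in 7 HEC and 5 EC each.

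HEC were not uniform in these genes. The number of the 24 arterial genes above background was 19, 16, 5, 18, 20, 11 and 22 in HEC cells 1 to 7 and 4, 9, 1, 8, 4, 7 and 8 in EC cells 1 to 7. HEC cell 3, with 5, lay inside the range of EC, and the other 6 HEC lay above every EC. Of the 12 measured venous and lymphatic genes, HEC cells 1 to 7 held 4, 4, 9, 5, 5, 10 and 8 and EC cells 1 to 7 held 10, 8, 0, 9, 6, 7 and 9. Cells 3 and 6 were the HEC with Aplnr (14.72 and 13.17) and with Nr2f2, the transcription factor of venous identity (9.82 and 11.78). HEC cell 6 held both sets, with Gja4 at 12.12 beside Aplnr, while in HEC cell 3 Gja4, Mecom, Vegfc, Dll4 and Hey1 were all at the floor. Cells 3 and 6 also had the highest median signal of all 14 arrays (11.62 and 11.26). Both carried immediate early and heat-shock RNA, with Fos at 12.35 and 14.30, Egr1 at 12.81 and 13.53 and Hspa1a at 14.24 and 14.22. The other 5 HEC had all 3 at the floor, whose highest value there was 2.53. Of 25 stress and early response genes, cells 3 and 6 held 20 each and the other HEC 9 to 14, while EC cells 1 and 3 held 15 and 19 and the other EC 5 to 10.

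**Figure D2:**
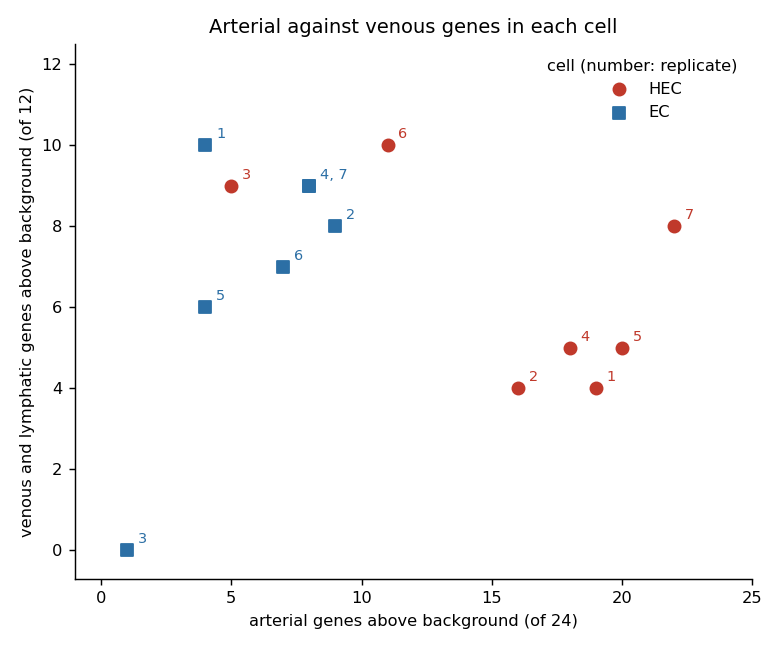
Number of arterial genes (of 24, horizontal) and venous and lymphatic genes (of 12, vertical) above background in each cell, HEC as red circles and EC as blue squares, numbered by cell. HEC 1, 2, 4, 5 and 7 lie at the right with 16 to 22 arterial genes, HEC 3 lies among the EC, HEC 6 holds 11 arterial and 10 venous genes and EC 3 holds almost none of either.

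Venous and lymphatic genes did not move as 1 group. Of 12 measured, 4 were higher and 3 lower by at least 1 log2 unit, beside 45.9% and 7.36% of all genes. Their median was 0.45, below that of all genes. The 3 lower ones were Aplnr, Mmrn1 and Nrp2, a semaphorin and VEGF-C receptor of veins and lymphatics, at 2.32, 2.37 and 12.80 in HEC and 2.32, 10.75 and 13.75 in EC, a difference of -2.79 (-3.88 without EC cell 3). Nrp2 was above background in HEC cells 3, 6 and 7 and in 5 EC. Flt4, the receptor for VEGF-C, was in 5 HEC and 6 EC, with a difference of -0.98 (-2.19 without EC cell 3). Nr2f2 was in 2 cells of each population and Ephb4, the ephrin receptor of veins, in 3 HEC and 4 EC. Without EC cell 3, which held none of the 12, the list median was -0.27, with 2 members higher and 4 lower. Leaving out other single cells gave medians from -0.81 (without HEC cell 6) to 0.78. With all 14 cells the median was -0.53 at equal median signal, with 2 members higher and 5 lower, -0.59 under quantile normalization and -1.10 over medians of cells, so the sign of this list was not settled.

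Several Notch receptors, ligands and modulators were higher in HEC, and the ligand Dll1 was lower. The receptor Notch1 was at 11.25, 12.11 and 13.23 in HEC and 4.21, 8.27 and 11.10 in EC, every HEC above every EC, a difference of 4.61 with a second probe set at 0.82. Jag1, a ligand, was in HEC cells 1, 2, 4 and 7 and in EC cell 4, a difference of 4.75. Mfng, a glycosyltransferase that tunes ligand choice, was in 6 HEC and 2 EC, a difference of 5.14. The ligand Dll1, in contrast, was in no HEC. Over the 22 measured receptors, ligands and modulators, 13 were higher and 1 (Dll1) lower, with a median of 1.87, and at equal median signal 10 were higher and 4 lower, with a median of 0.89, beside 45.9% and 26.6% of all genes higher. Rbpj, the DNA-binding partner of Notch, was in 3 HEC and 2 EC (difference 0.34), and the ligand-processing protease Adam10 was in all 14 cells.

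The 5 measured targets of Notch were all higher in HEC, at a median of 5.17 (4.19 at equal median signal), beside 45.9% and 26.6% of all genes higher. Heyl, Hes5 and Hes7, also listed, were below the filter and in 0 HEC and 0 EC, and without a filter the median was 3.66. HEC alone can carry a gene past the filter, as with Hey1, so this count is partly set by the filter. Hey1 and Hey2 are also in the arterial list. Hey1, a transcriptional repressor, was at 2.31, 10.52 and 13.77 in HEC and 2.32, 2.37 and 2.51 in EC, present in HEC cells 1, 4, 5 and 7 and in no EC, a difference of 5.85. Hey2, its paralog, was at 2.33, 10.55 and 12.30 in HEC and 2.32, 2.37 and 9.21 in EC, in 5 HEC and in EC cell 4, a difference of 5.17. Nrarp, which feeds back on the Notch complex, was at 2.31, 10.71 and 11.82 in HEC and 2.33, 2.42 and 8.22 in EC, in 6 HEC and 2 EC, a difference of 5.39. Hes1 was in 4 HEC and 2 EC (difference 2.65) and Gata2, a blood transcription factor that Notch can induce, in 6 HEC and 2 EC, 1 of them EC cell 3 (difference 4.67). HEC cell 3 held 2 of the 5 (Hes1 and Gata2), HEC cells 5 and 7 held all 5, and no EC held more than 2.

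The promoters of 4 of these arterial and Notch pathway genes are shown because their genes were detected together in HEC cells 1, 4, 5, 6 and 7. Each is the 250 bases before the annotated start of the gene in RefSeq on build GRCm38.p6, written 5′ to 3′ on the gene's own strand. Capitals mark letters that match TGGGAA, the core motif of Rbpj, ACAAT, the core motif of Sox factors, or CACGTG, the E-box that Hey proteins can bind, on either strand, so that TTCCCA and ATTGT are marked too. Gja4 lies at chr4:127314040-127314289 on the minus strand, Hey2 at chr10:30842784-30843033 on the minus strand, Nrarp at chr2:25180508-25180757 on the plus strand and Dll4 at chr2:119325534-119325783 on the plus strand.
Gja4: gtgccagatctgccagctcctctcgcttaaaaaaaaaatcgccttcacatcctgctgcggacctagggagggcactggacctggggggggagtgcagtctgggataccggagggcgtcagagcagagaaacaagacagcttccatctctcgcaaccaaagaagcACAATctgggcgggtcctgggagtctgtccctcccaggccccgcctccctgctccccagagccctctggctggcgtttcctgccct
Hey2: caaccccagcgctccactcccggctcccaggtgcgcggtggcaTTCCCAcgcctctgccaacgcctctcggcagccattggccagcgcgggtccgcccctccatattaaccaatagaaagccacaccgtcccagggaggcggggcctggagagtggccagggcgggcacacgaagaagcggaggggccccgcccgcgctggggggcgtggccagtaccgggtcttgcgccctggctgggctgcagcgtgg
Nrarp: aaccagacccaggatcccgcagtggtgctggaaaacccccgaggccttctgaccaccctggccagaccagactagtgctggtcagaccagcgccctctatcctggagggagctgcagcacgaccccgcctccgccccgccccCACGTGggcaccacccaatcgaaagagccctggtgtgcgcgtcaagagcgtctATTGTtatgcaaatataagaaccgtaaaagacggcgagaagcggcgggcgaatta
Dll4: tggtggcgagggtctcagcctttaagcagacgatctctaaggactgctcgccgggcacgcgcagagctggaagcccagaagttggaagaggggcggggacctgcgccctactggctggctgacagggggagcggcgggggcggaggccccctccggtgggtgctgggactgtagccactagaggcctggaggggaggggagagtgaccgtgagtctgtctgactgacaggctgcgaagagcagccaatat
The Gja4 and Nrarp windows each hold 1 Sox core match, the Nrarp window also holds 1 E-box and the Hey2 window holds 1 Rbpj core match, while the Dll4 window holds none of the 3. Among 32544 promoter windows of the same length, 21.6% hold the Rbpj core, 27.4% the Sox core and 6.03% the E-box, so single matches are common and are a description of the letters alone.

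Endothelial transcription factors were higher in HEC more often than other genes. Among 30 measured SoxF, ETS, KLF, forkhead and related factors 23 were higher by at least 1 and none lower, with a median of 2.67. At equal median signal 19 were higher and 4 lower. The share of all genes that were higher was 45.9% as deposited and 26.6% at equal median signal. Sox17, a SoxF factor of arteries and hemogenic endothelium, was at 2.31, 11.42 and 13.75 in HEC and 2.32, 2.41 and 11.30 in EC, in 5 HEC and 2 EC, a difference of 4.66. Hhex, a homeobox factor shared by endothelium and blood, was at 8.17, 12.31 and 12.78 in HEC and 2.32, 2.58 and 9.94 in EC, a difference of 6.38. Klf4, a flow-responsive factor, was in 5 HEC and 1 EC (5.68), Zeb1 in 6 HEC and 2 EC (5.25) and Nfatc1 in 5 HEC and 1 EC (4.74). Foxc1, a forkhead factor upstream of arterial genes, was in 5 HEC and 0 EC, a difference of 4.79, though its values in EC cells 2 and 6 were only just under the threshold. General endothelial genes leaned the same way, with 26 of 30 higher and none lower (median 2.77), and 22 higher and 1 lower at equal median signal. Without EC cell 3 the median fell to 1.91, with 19 higher and 1 lower.

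Blood transcription factors split into those already present in endothelium and those of committed blood cells. Runx1 itself, whose enhancer defined the sort, was at background in all 14 cells on all 6 of its probe sets. Gfi1, Gfi1b, Spi1, Gata1, Klf1, Nfe2 and Cebpa were also above background in 0 of 14 cells. In contrast, Lmo2, a bridging factor of blood and endothelium, was at 10.06, 13.21 and 14.49 in HEC and 2.75, 8.95 and 13.60 in EC, in 7 HEC and 4 EC, a difference of 4.75. Lyl1, a basic helix-loop-helix factor, was in 5 HEC and 1 EC (4.82), Tal1 in 5 HEC and 3 EC (2.66) and Cbfb, the partner of Runx proteins, in 7 HEC and 5 EC (2.50). Over the 28 measured factors 11 were higher and 2 lower, with a median of 0.35, beside 45.9% of all genes higher. At equal median signal 8 were higher (28.6%) and 12 lower, beside 26.6% and 31% of all genes. However, 10 of the 28 were at background in all 14 cells, and that scaling can count such genes as lower.

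A few genes of blood cells were present in HEC without the rest of that programme. Laptm5, a lysosomal protein of blood cells, was at 2.38, 10.83 and 13.44 in HEC and 2.47, 2.63 and 6.12 in EC, in 5 HEC and 1 EC, a difference of 5.60. Arhgdib, a gene of blood cells, was at 2.75, 9.87 and 11.94 in HEC and 2.33, 2.56 and 8.99 in EC, in 6 HEC and 1 EC, a difference of 5.20. Lcp1, an actin-bundling protein, was in 7 HEC and 5 EC, a difference of 2.98. Among 23 measured pan-hematopoietic genes 6 were higher and none lower, a smaller share than the 45.9% of all genes, and at equal median signal 5 were higher and 10 lower. Of the 23, 13 were at background in all 14 cells, and that scaling can count such genes as lower. The median as deposited was 0.03. HEC held 3 to 6 of them per cell and EC 0 to 4.

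Genes associated with HSC function were mostly higher in HEC as deposited, 20 of 26 measured with none lower and a median of 1.72, beside 45.9% of all genes. At equal median signal 12 were higher (46.2%) and 1 lower, beside 26.6% of all genes higher. Of the 26, 8 were above background in no EC, and HEC alone can carry a gene past the filter. Esam and Cd34 are also in the endothelial list and Sox17 in the arterial list. Beside Mecom, Procr, the protein C receptor used to isolate HSC, was at 2.32, 10.77 and 11.80 in HEC and 2.34, 2.41 and 11.24 in EC, in 5 HEC and in EC cell 1, a difference of 4.98. Cdkn1c, an imprinted inhibitor of cyclin-dependent kinases, was in all 7 HEC and 4 EC, at 9.76, 11.94 and 13.81 in HEC, a difference of 5.46. Mllt3, a chromatin reader that maintains HSC, was detected in HEC cells 2, 3 and 7 and in no EC (3.82). Fgd5, a guanine exchange factor of endothelium and HSC, was in 7 HEC and 4 EC (4.95), and Hoxa9 in 4 HEC and 2 EC (3.41). Hoxb3 was in 5 HEC and 0 EC (5.19), which became 1 and 0 with equal numbers of probe sets above the threshold, while over 16 measured Hox genes and cofactors 8 were higher and 1 lower, a share near the 45.9% of all genes, with a median of 1.02. At equal median signal 5 were higher and 4 lower.

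Some ligands that endothelium presents to neighbouring cells were higher in HEC. Kitl, the ligand of the Kit receptor, was at 2.32, 13.20 and 14.31 in HEC and 2.32, 2.41 and 11.03 in EC, in 6 HEC and 3 EC, a difference of 6.23. Efna1, an ephrin ligand, was at 10.43, 11.85 and 13.78 in HEC and 2.36, 2.70 and 11.54 in EC, in 7 HEC and 3 EC, a difference of 6.51. Among 22 measured chemokine and adhesion genes 16 were higher and none lower, beside 45.9% of all genes higher, and at equal median signal 12 were higher and 5 lower. Without EC cell 3 again 16 were higher and none lower, but the list median went from 2.01 to 1.34, where that of all genes was 0.98. The tetraspanin Cd151 (5.96), the adhesion molecule Mcam (4.47) and the receptors for interferon gamma (Ifngr1, 4.44) and tumour necrosis factor (Tnfrsf1a, 4.52) were in all 7 HEC and in 2 or 3 EC. For Mcam, Ifngr1 and Tnfrsf1a this contrast was lost with equal numbers of probe sets above the threshold, at 3 against 3, 1 against 2 and 3 against 3 cells.

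Components of the vessel wall are given beside all measured genes, of which 45.9% were higher and 7.36% lower as deposited. At equal median signal 26.6% of all genes were higher and 31% lower. Of 17 measured proteases and inhibitors 15 were higher and none lower (median 2.51), led by Lxn and by Timp2, a metalloprotease inhibitor in 5 HEC and 0 EC (5.29), and Mmp14, a membrane metalloprotease in 7 HEC and 3 EC (4.82). At equal median signal 10 of them were higher and none lower. Of 31 basement membrane and matrix genes 21 were higher and 3 lower, and 15 and 7 at equal median signal. Col5a2 (5.92) and Agrn, a heparan sulfate proteoglycan (4.66), were in all 7 HEC, whereas Lamb1, a laminin chain in 6 HEC and 7 EC, and Col15a1, in 1 HEC and 3 EC, gave -1.97 and -2.21. Genes of flow and vessel tone were 13 of 21 higher and 1 (Abcc9) lower, and 8 higher and 5 lower at equal median signal. Among the higher ones as deposited were Cav1, the caveolar coat protein (5.99), Ptgis, which makes prostacyclin (5.30, but above the equal-number threshold in 1 HEC and 0 EC), Calcrl, the adrenomedullin receptor (5.15) and Nos3, endothelial nitric oxide synthase (3.76). Vwf, von Willebrand factor, was at 2.31, 13.20 and 14.40 in HEC and 2.32, 2.41 and 13.54 in EC, absent from HEC cells 3 and 6 and present in EC cells 1 and 7, a difference of 5.19. Junction genes were 19 of 27 higher with none lower, and 13 higher and 3 lower at equal median signal, including Cldn5 (4.45) and Esam (2.94). Without EC cell 3 the junction median went from 1.98 to 1.76, with 19 higher and none lower.

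BMP and TGF-beta genes were higher in 21 of 26 cases and lower in none, with a median of 2.51, beside 45.9% of all genes higher. At equal median signal 16 were higher and 1 lower, beside 26.6% of all genes higher. Tgfbr3, a coreceptor, was in 5 HEC and 0 EC, at 2.56, 10.51 and 13.82 in HEC, a difference of 5.80. Ltbp1, which stores latent TGF-beta, was in 4 HEC and 0 EC (4.58). The BMP targets Id1 (3.45), Id2 (3.50) and Smad6 (4.37) were in 7, 5 and 4 HEC and in 5, 1 and 1 EC, and with equal numbers of probe sets above the threshold Id2 was in 1 of each. Wnt genes showed no such shift, with 10 of 21 higher and 3 lower and a median of 1.00, close to that of all genes. Within them Fzd6, a receptor, was in 5 HEC and 0 EC (5.47), and Lrp6, the coreceptor, in 2 HEC and 5 EC (-2.20). Dusp6, a phosphatase induced by the FGF and ERK pathway, was at 2.33, 11.30 and 14.20 in HEC and 2.32, 2.41 and 9.72 in EC, in 6 HEC and 2 EC, a difference of 5.84.

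**Figure D3:**
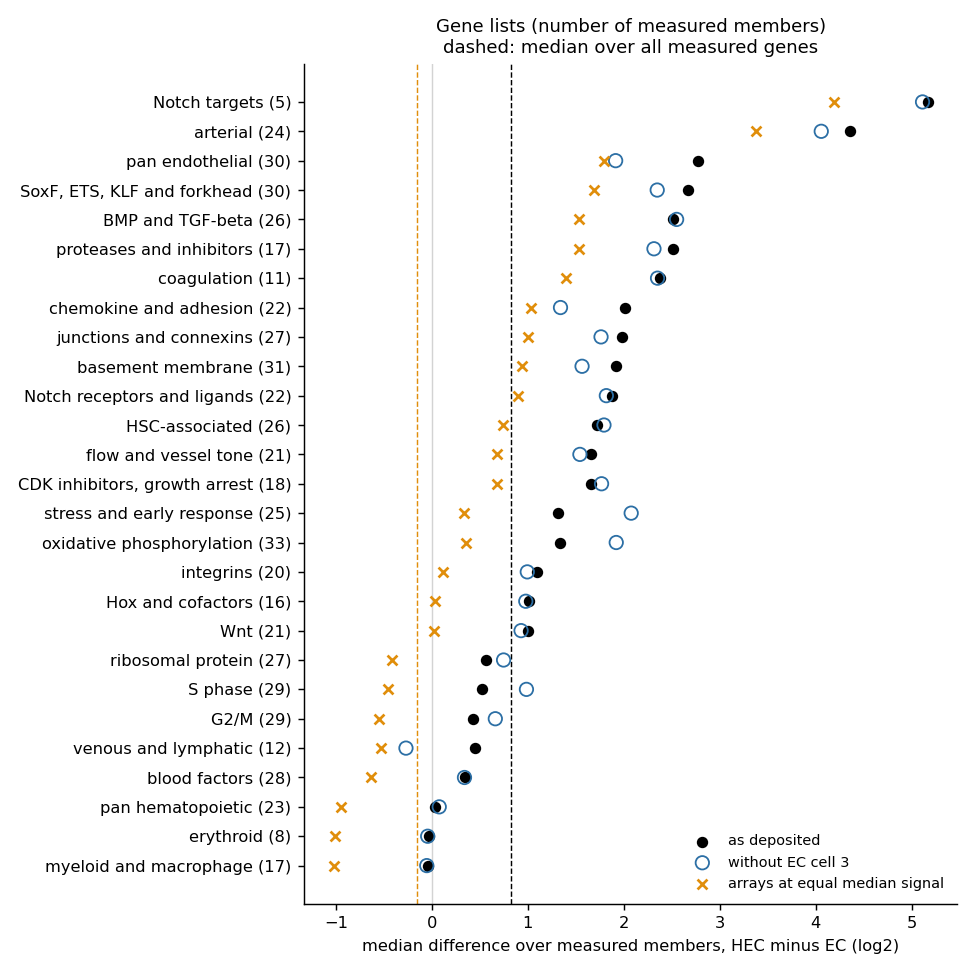
Median difference between HEC and EC over the measured members of 27 gene lists (log2 units), as deposited (black), without EC cell 3 (blue circles) and with arrays at equal median signal (orange crosses). Dashed lines give the median over all measured genes, 0.82 as deposited and -0.16 at equal median signal. Notch targets and arterial genes lie furthest to the right, and blood, erythroid and myeloid genes lie left of the dashed lines.

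Cell-cycle genes varied more between cells than between the populations. Of 29 G2/M genes, HEC cells 1 to 7 held 21, 27, 25, 15, 2, 7 and 16 and EC held 10 to 20, and of 29 S-phase genes HEC held 10 to 25 and EC 11 to 27. The list medians, 0.42 for G2/M and 0.52 for S phase, were below that of all genes. Mki67, a marker of cycling cells, was at 2.80, 11.53 and 14.15 in HEC and 2.77, 8.83 and 13.73 in EC, and its lowest HEC were cells 5 and 6. Bub1b, a spindle checkpoint kinase, was in 5 HEC and 2 EC (3.84) and Kif20a, a mitotic kinesin, in 4 HEC and 1 EC (3.94). The helicase subunit Mcm7 was in 5 HEC and 7 EC, at 2.34, 12.59 and 14.63 in HEC and 7.81, 11.72 and 14.93 in EC, and its mean difference of -2.56 has the opposite sign of the difference of medians, 0.87. Among 18 genes of growth arrest, with the cyclins and kinases Ccnd1, Ccnd2, Ccnd3, Cdk4 and Cdk6 included, 11 were higher and none lower. The list is thus not a measure of arrest alone. It was led by Cdkn1c and by Btg1 (5.23), which was in 7 HEC and 5 EC. At equal median signal 6 were higher (33.3%) and 3 lower. The share of all genes that were higher was 45.9% as deposited and 26.6% at equal median signal. Among metabolic lists, glycolysis genes had a median of 0.49 and ribosomal protein genes 0.56, below that of all genes. Of 33 oxidative phosphorylation genes 21 were higher and 1 lower, with a median of 1.34. Without EC cell 3 they were 25 and 1 with a median of 1.92, where that of all genes was 0.98, and at equal median signal 13 and 3 with a median of 0.36.

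**Figure D4:**
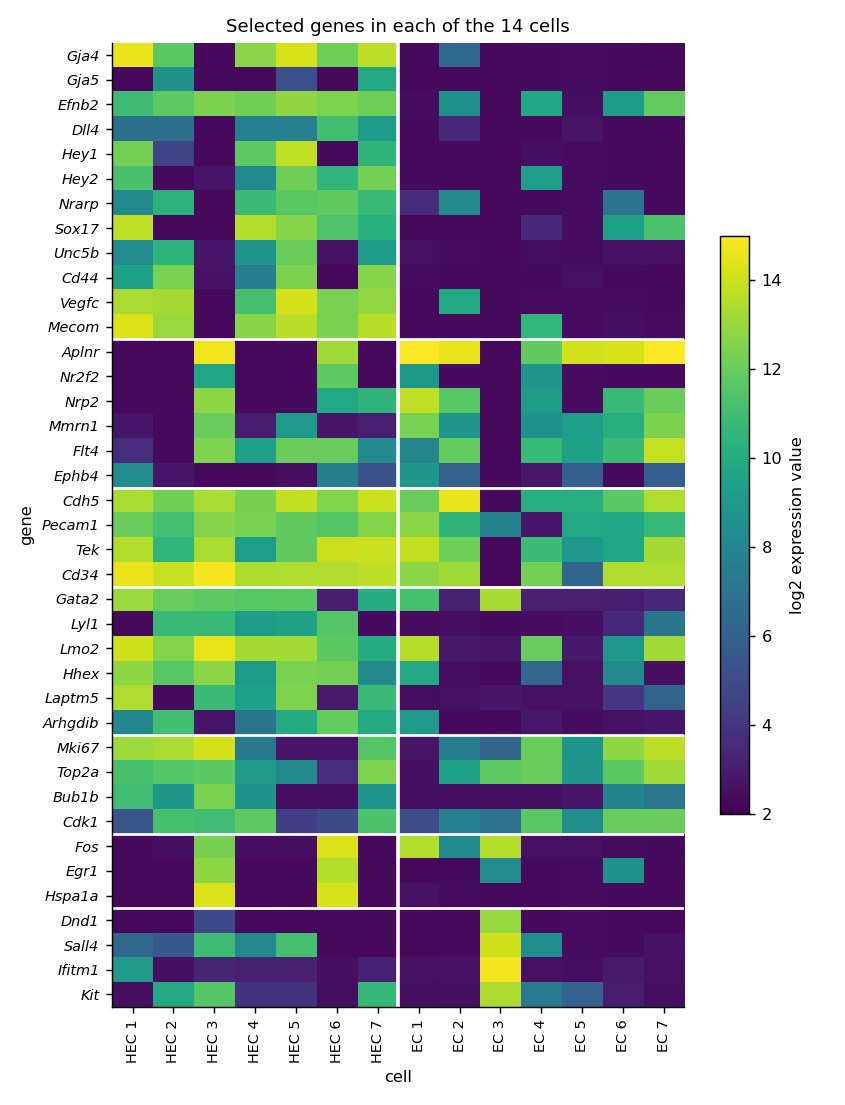
Log2 values of 39 genes in each of the 14 cells, HEC at the left and EC at the right of the vertical line. Horizontal lines part, from the top, arterial and Notch genes with Mecom, venous and lymphatic genes, endothelial genes, blood-associated genes, cell-cycle genes, stress genes and genes of germ cells. HEC 3 lacks most of the first block and holds the second, and EC 3 is brightest for Dnd1 and Ifitm1, and Ifitm1 is also above background in HEC 1, at 8.99.

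Few genes separated every HEC from every EC. In 23 genes (0.215%) all 7 HEC lay above all 7 EC, and all 23 were above background in all 7 HEC. The 20 largest were Lxn, Mob4, Pak1ip1, Trak2, Vrk3, Cd2ap, Acot9, Lrrc42, Gusb, Dab2ip, Ccm2l, Sfr1, Ctbp1, Wasf2, Zfp362, Arhgef2, Notch1, S100a16, Psmd1 and Maged1, with differences from 4.08 to 8.18. Lrrc42 was at 8.53, 10.70 and 12.92 in HEC and 4.03, 4.17 and 4.35 in EC, all EC below background. Cd2ap, a scaffold that links membrane proteins to actin, was at 11.67, 12.16 and 13.71 in HEC and 2.32, 2.70 and 11.67 in EC. Its other probe sets gave 1.08 and 1.34, each above background in 1 HEC and 0 EC. Ccm2l, an endothelial partner of a cerebral cavernous malformation protein, was at 10.31, 11.42 and 13.22 in HEC and 2.70, 2.90 and 10.21 in EC, and Wasf2, which drives actin branching, at 10.77, 12.41 and 13.87 in HEC and 2.63, 9.04 and 10.48 in EC. Esam, an endothelial adhesion molecule, was 1 of the remaining 3, at 11.87, 12.20 and 13.49 in HEC and 2.45, 10.92 and 11.63 in EC. The housekeeping gene Gusb is also among them, at 11.25, 11.49 and 12.46 in HEC and 2.45, 4.97 and 9.92 in EC. The count is sensitive to scale and cells, but with fewer cells the populations overlap less by construction. It was 8 at equal median signal, and it rose to 70 without EC cell 1, 58 without HEC 4, 48 without EC 7, 41 without HEC 1, 41 without HEC 2, 40 without EC 3, 37 without HEC 5, 36 without HEC 6, 35 without HEC 3 and 35 without HEC 7. In the other direction 20 genes (0.187%) had every HEC below every EC. None of these was above background in all EC, and at most 3 EC had any of them above background, so their order rests on the floor values of the arrays and none is named. That count was 123 without EC cell 7, 108 without HEC 4, 57 without EC 3 and 38 without HEC 3.

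As whole profiles the cells were only moderately alike. Over all measured genes, pairs of HEC correlated at r = 0.470 to 0.552 (median 0.509), pairs of EC at 0.384 to 0.503 (median 0.462) and HEC with EC at 0.412 to 0.548 (median 0.469). These are descriptions over genes, which are not independent, of cells that differ in depth. Each HEC had a higher mean correlation with HEC than with EC, but so did each EC, from 0.440 to 0.521 with HEC against 0.428 to 0.479 with EC, so by this measure no EC was more like the other EC than like HEC. The median SD of a gene was 2.90 over HEC and 2.49 over EC. The 5 genes with the largest SD over HEC were Btaf1, Hspa1a, Cenpa, Jag1 and Aplnr, and those over EC were Prpf19, Atp11a, Ifitm3, Ube2a and Ncl. Their values were on or off, as with Jag1 at 2.31, 11.75 and 14.21 in HEC and Ifitm3 at 2.38, 2.77 and 15.54 in EC. For Ifitm3, a gene of germ cells and of interferon responses, the highest EC was cell 3, and its difference was 4.95 with that cell and 6.40 without it.

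Against the blood populations of the study, the genes that marked HEC fell into those shared with blood cells and those not. Gja4 was detected in 3 of 28 cluster cells of E10.5 and 1 of 26 fetal liver HSC (of which 2 near-identical arrays were averaged), Sox7 in 1 and 1 and Hey2 in 1 and 0. Mecom was in 3 of 28 cluster cells of E10.5 and in 23 of 26 fetal liver HSC. Lxn was in 26 of 28 and 20 of 26, Laptm5 in 28 and 24, Arhgdib in 28 and 25 and Cd44 in 27 and 20. Runx1, at background in all 14 endothelial cells, was in 20 of 28 E10.5 cluster cells, and Ptprc in 26 of 28. Aplnr was in none of the cluster cells of either stage. These populations differ from HEC in genotype, gate and, for all but the E10.5 clusters, stage, which cannot be told apart here.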

How the data were processed

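Single cells were hybridised to arrays of 45101 probe sets. According to the submitters' processing notes, the authors' deposited log2 values come from GCRMA and affy, whose versions are not given in the sources used here. This method takes off a background modelled on probe sequence, which leaves undetected probe sets at a floor near 2.3. Between arrays the median signal and the number of probe sets above background were not equal. The Dap control, however, was at 12.64 on every HEC and EC array. The Phe control was at 9.50 on the arrays of 5 HEC and 6 EC, and at 3.46 to 4.15 on the others. The step behind these shared control values is not stated in the sources used here. Its part in the differences between HEC and EC was not tested. No array was normalised again for the reported values. The 64 control probe sets were left out. Probe sets were named from the platform's annotation, where 34945 had 1 symbol and could be used, 932 had several and 9160 had no entry. A gene took its probe set of highest mean across the 5 populations, each given equal weight.

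A difference is the mean log2 value over 7 HEC minus that over 7 EC (Python 3.11.15, pandas 2.3.3, numpy 2.4.6). Genes were counted at a difference of at least 1 log2 unit, by cells above background (a difference of at least 5) and by absence of overlap. Differences carry no test, because each population counts as 1 sample. Depth cannot be read from an array, and the number of arrays limits the precision. Named genes were the 15 largest differences each way among genes above background in at least 4 cells of the higher population, outside the sorting gate, with the 20 largest genes without overlap, the 4 marker genes, members of 42 lists and the 5 most variable genes of each population. The members and lists were chosen with earlier results of these data known. The arithmetic was checked on simulated data with a far smaller spread over cells and no on-or-off values, so it says nothing about the calls in these data. Alternatives covered scaling, probe set choice, filters, the background threshold, medians and leaving out cells. Promoters are RefSeq's for GRCm38.p6, and genes of that table without an entry are named only.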

Additional observations from a re-analysis of the deposited data

Results flagged for a closer look

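Cells are listed here whose value lay far from those of the other cells of their population by Dixon's criterion. Of the 94 groups checked, 9 had such a cell. For normal values the criterion flags about 1 in 20 independent groups. Values here are often on or off and the groups share cells and genes, so that rate cannot be set against the count. Among HEC, cell 3 lay far below the others for Gja4 (2.31, others 11.70 to 14.61) and Mecom (2.31, others 12.40 to 14.31), and far above them in its mean over junction genes (11.02, others 8.10 to 9.29) and over glycolysis genes (9.97, others 7.48 to 8.31). This array had the highest median signal of the 14, and its part in the last pair of values was not tested. HEC cell 6 had the highest mean over hedgehog, FGF and retinoid genes, 6.30 against 4.53 to 5.20. Among EC, cell 2 was alone with Gja4 (6.39, others 2.32 to 2.41) and cell 4 alone with Mecom (10.62, others 2.34 to 2.55). EC cell 3 lay below the others for Aplnr (2.32, others 11.84 to 15.17) and above them in its mean over germ-cell genes (11.87, others 2.50 to 4.71). Outside the named genes, a probe set without a gene name here was above background in 6 HEC and 1 EC, with a difference of 6.64, and was chosen after its values were seen.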

How the results depend on the processing

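Of 4137 recomputed differences of 148 named genes, 4074 moved by less than 1 SD over cells, and 77 values of 22 genes had the opposite sign, 15 of them for a difference of at least 1 as reported. Of 1175 recomputed list medians 1076 moved by less than 1 SD, and 81 of 21 lists had the opposite sign, 10 of them for a median of at least 1 as reported. The venous and lymphatic median is among those without a settled sign. Of 168 recomputed counts 99 stayed within 1.5 times. The cause of the changes below was not tested unless the setting itself shows it. In the next sentences counts come in the order higher, lower, above background in at least 5 more HEC, in at least 5 more EC, no overlap higher and no overlap lower. At equal median signal the higher and lower counts were 2840 and 3314, that in at least 5 more EC was 5 and that without overlap higher was 8, and the median over all genes was -0.16. Quantile normalization gave 2613, 2288, 63, 89, 4 and 12, with a median of 0.00. An equal housekeeping median gave 2546, 3809, 21, 18, 6 and 8, with a median of -0.33. The mean of all probe sets of a gene gave 427 lower genes, 0 in 5 more EC, 11 without overlap on the lower side and an arterial median of 2.63. Medians over cells gave 517 lower genes, 0 without overlap on the lower side, a median over all genes of -0.021 and a Notch target median of 8.18. Without a filter the median over all genes was -0.034. A filter on the 14 cells left 5 genes without overlap on the lower side. The 1 gene in 5 more EC became 0 at a background threshold of 6 and 3 at 4. Without both cells numbered 3 the last 4 counts were 78, 3, 56 and 90. Among the 5 HEC and 6 EC whose arrays hold both shared control values the no-overlap counts were 131 and 52. Chosen after seeing the data, leaving out the 3 EC with the fewest probe sets gave 1757 lower genes, 43 in 5 more EC, and 45 and 39 without overlap, and equal numbers of probe sets above the threshold gave 37 in 5 more HEC and 11 in 5 more EC. Leaving out 1 cell gave 68 to 131, 0 to 3, 24 to 70 and 24 to 123 for the last 4. Fewer cells overlap less by construction, and the scaled rule for 5 more cells is stricter for some genes. The blood factor median was -0.63 at equal median signal, -0.81 at an equal housekeeping median and 2.50 with the filter on the 14 cells. The HSC-associated median was 0.74, 0.81, 0.56, 2.94 and 2.66 at equal median signal, quantile normalization, equal housekeeping median, the filter on the 14 cells and cells with both control values, and 1.48 to 2.44 on leaving out 1 cell. Among values of at least 1 as reported, signs changed for the germ-cell median (-0.14 under quantile normalization, -0.093 at an equal housekeeping median, -1.01 without a filter, and -0.031 without HEC cell 3 to 1.69 without HEC cell 6) and the integrin median (-0.050 under quantile normalization, -0.056 at an equal housekeeping median). They also changed for the Hox median (-0.14 at an equal housekeeping median, -0.031 without a filter and -0.033 over medians of cells) and the guidance median (-0.037 without a filter). Over medians of cells the differences were -0.019 for Gja5, -0.030 for Bmx, -0.024 for Cxcl12, 0.87 for Mcm7, -0.061 for Egr1, -0.052 for Hspa1a and -0.46 for Btaf1. Quantile normalization gave -0.41 for Kdr, -0.18 for Egfl7 and -0.14 for Kit, and an equal housekeeping median -0.13 for Egfl7 and -0.093 for Kit. On leaving out 1 cell Dnd1 ran from -1.55 to 0.32 (without EC cell 3) and Egr1 from -0.039 (without HEC cell 6) to 2.07, and Prpf19 was at -0.48 without the 3 EC with the fewest probe sets. No paired analysis was possible because each population counts as 1 sample and the results come from no test, so the shared replicate numbers only name cells. Signal over background limits what can be said of genes near the threshold, such as Dll4.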

Other observations

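Some single genes of other groups stood apart. Of 21 measured interferon and antigen presentation genes 10 were higher in HEC and none lower, with a median of 0.80, which is that of all genes. Within them B2m, the light chain of class I molecules, was in 7 HEC and 5 EC, a difference of 4.18, and the class I heavy chain genes H2-K1 and H2-D1 were in 6 HEC and 4 EC each, with differences of 3.10 and 3.58. The interferon-induced genes Ifit1 and Irf7 were at background in all 14 cells. Of 15 imprinted genes 9 were higher and 3 lower, where 45.9% of all genes were higher. Without EC cell 3 they were 6 and 1, with the median going from 1.32 to 0.35, and at equal median signal 4 and 4. Sgce was in 6 HEC and 2 EC, a difference of 4.84, and Peg3 in 5 HEC and 7 EC, a difference of -1.92. Hypoxia factors, their regulators and targets were taken as 1 list, which holds Epas1. It stayed near the level of all genes with a median of 0.53. Within it the enzymes Ldha and Pgk1 were in all 14 cells with differences of -0.03 and 0.53, and Epas1 differed by 7.47. The lactate transporter Slc16a1 was in 2 HEC and 5 EC, a difference of -3.22.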
